A study of Mus musculus with 855 samples.

Results

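The P16 starburst amacrine cells were divided by 2 receptor genes, *Glra4* and *P2rx2*. The cells were chosen by the fragments of these genes alone: a cell was *Glra4*-only when it held at least 1 *Glra4* fragment (after rounding) and no *P2rx2* fragment, and *P2rx2*-only when the reverse held. There were 54 *Glra4*-only and 40 *P2rx2*-only cells. These 94 cells were all taken at P16, where 54 further cells held neither gene and 38 held both, and the series has 820 analysed cells over 5 ages. The cells were sorted singly by tdTomato fluorescence from Chat Cre/+; ROSA-LSL tdTomato/+ mice on the C57BL/6 strain, and their polyadenylated RNA was amplified with a modified Smart-seq2 protocol. In these mice every cell that makes or has made Cre from the *Chat* locus is labelled, and no gene was deleted in any group. Groups at the other ages (P1, P4, P8 and P11) share this genotype and strain. Retinas of several mice were pooled at each age, and no label ties a cell to its mouse. Each age is therefore a single pool, and no p-value was computed between cells. The names of the cells divide P16 into set a (91 cells) and set b (95 cells). What divides the sets is not stated, and they were used to see whether a difference appeared more than once.

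Starburst amacrine cells are the cholinergic interneurons of the retina, and they release both acetylcholine and GABA onto direction-selective ganglion cells. ON starburst cells lie in the ganglion cell layer and OFF starburst cells in the inner nuclear layer, and their dendrites form separate cholinergic bands in the inner plexiform layer. *Glra4* encodes the alpha4 subunit of the glycine receptor, an inhibitory chloride channel, and receptors with this subunit have been placed near the ON cholinergic band. *P2rx2* encodes the P2X2 subunit of ATP-gated cation channels and has been reported in OFF cholinergic amacrine cells. The study used *Fezf1*, which encodes a zinc finger transcription factor, as its marker of ON cells and *Rnd3*, which encodes an atypical small GTPase, as its marker of OFF cells. If *Glra4* and *P2rx2* marked the 2 subtypes at P16, few cells would hold both.

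*Glra4* (ENSMUSG00000018595.6) is a protein-coding gene on the minus strand of chromosome X, from 136757674 to 136780141 in GRCm38, with 9 exons in its longer transcript. *P2rx2* (ENSMUSG00000029503.16) is found on chromosome 5, minus strand, between 110339812 and 110343212, and has up to 12 exons. At P16, 92 cells held *Glra4*, with 1 to 225 fragments and a median of 51.5, and 12 of them had under 10 fragments. *P2rx2* was found in 78 cells with 1 to 664 fragments and a median of 108.5, and 3 of them had under 10. The lowest values inside the threshold were 1, 1, 1 and 2 fragments for *Glra4* and 1, 1, 8 and 16 for *P2rx2*, and the highest value outside was 0 for both. Few cells lay near the threshold.

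In FPKM, which corrects for gene length, *Glra4* ranged in the *Glra4*-only cells from 2.33 to 567 with a median of 156.6. *P2rx2* ranged in the *P2rx2*-only cells from 2.53 to 1117 with a median of 230.5. These levels chose the groups and are given only as a description. The sets were alike, with median *Glra4* FPKM values of 164.2 (set a) and 147.3 (set b) and median *P2rx2* FPKM values of 230.8 and 229.7. The deposited table gives *Glra4* a shared locus with *Morf4l2* and *BC065397*. *Morf4l2* lies beside *Glra4* and was present in 95.7% of cells with *Glra4* and 97.9% of cells without it. *BC065397* runs antisense across *Glra4* and was present in 25% of cells with *Glra4* (23 of 92, 95% interval 16.6 to 35.1) and in 1.06% of the 94 cells without it. Smart-seq2 does not keep the strand, so reads of *Glra4* and *BC065397* cannot be told apart where they overlap.

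*Glra4* and *P2rx2* did not exclude each other. Both were found in 38 cells and neither in 54, and 38.6 cells with both would be found if the genes were independent. The ratio of observed to expected was 0.985 (0.717 to 1.3 from the exact 95% interval of the observed share). *P2rx2* was present in 41.3% of the cells with *Glra4* (31.1 to 52.1) and in 42.6% of those without it (32.4 to 53.2). Each set gave the same result, with 19 cells holding both genes in set a against 19.3 expected and 19 in set b against 19.3. All intervals on shares are exact Clopper-Pearson intervals and cover the counting error over cells only. They do not cover differences between mice, because each age is 1 pool and no label ties a cell to its mouse. The reads also carry no molecular identifiers.

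*Xist* and the Y-linked genes did exclude each other in the same cells. *Xist*, which is expressed from the inactive X chromosome of females, was found in 36 cells and at least 1 of 4 Y-linked genes in 95 cells, and 0 cells held both against 18.4 expected. That outcome is set by the sex of the mouse, so it does not show whether exclusion between subtypes could be seen. The study's markers *Fezf1* and *Rnd3* were found together in 2 P16 cells against 2.52 expected, with *Rnd3* in only 13 cells. *Glra4* and *P2rx2* were an ordinary pair among genes of similar frequency. Over 2917 genes present in 25% to 75% of the P16 cells, the observed to expected ratio with *Glra4* had a median of 1.01, its 5th and 95th percentiles were 0.854 and 1.16, and 39.7% of the genes had a lower ratio than *P2rx2*.

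**Figure D1:**
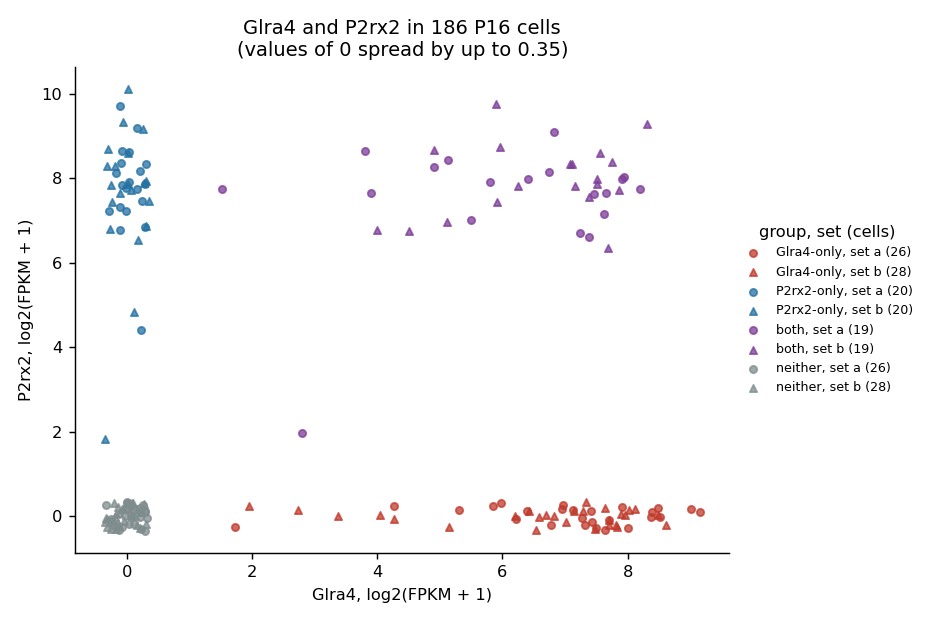
Level of *Glra4* (horizontal) and *P2rx2* (vertical) in each P16 cell, as log2(FPKM + 1), with values of 0 spread by up to 0.35 so that cells can be seen. Circles are set a and triangles set b. The 38 cells with both genes lie away from both axes, most of them at high levels of both genes but some at a low level of 1 or both.

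Cells with both genes held *P2rx2* at levels like those of *P2rx2*-only cells, while their *Glra4* levels were lower than in *Glra4*-only cells. In these 38 cells the median *P2rx2* FPKM was 228.2, against 230.5 in the *P2rx2*-only cells, and the median *Glra4* FPKM was 122.8 (range 1.87 to 315.7), against 156.6 in the *Glra4*-only cells. The lower quartile of *Glra4* FPKM was 36.5 in cells with both and 83.3 in *Glra4*-only cells. The ranges overlapped widely for both genes. Across all P16 cells the Spearman correlation between the 2 levels was -0.05, and across the 38 cells with both it was 0.08, with a Pearson correlation of 0.31 on the log2 scale. Depth was similar in the groups. The median of the cells with both genes was 258795 fragments and 2582 genes per cell, against 267379 and 2615 in *Glra4*-only cells, 269328 and 2595.5 in *P2rx2*-only cells, and 267952 and 2547 in cells with neither. No doublet caller was run on these singly sorted cells.

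Both genes came on late in the sampled ages. *Glra4* was listed at 0 in every cell at P1 and at P4, which allows shares of up to 2.1% and 1.62%. It was found in 15 cells at P8 (9.04%, 5.15 to 14.5), 22 cells at P11 (15.7%, 10.1 to 22.8) and 49.5% of the cells at P16 (42.1 to 56.9). Its mean FPKM was 2.77, 11.3 and 74.6 at these ages. *P2rx2* followed a similar course, with 1 cell at P1, 3 at P4, 18 at P8 (10.8%, 6.55 to 16.6), 15 at P11 (10.7%, 6.12 to 17.1) and 41.9% of the cells at P16 (34.8 to 49.4), and mean FPKM values of 0.418, 0.758, 2.84, 4.51 and 114.5. For both genes the interval at P16 lay above those of all earlier ages, while those of P8 and P11 overlapped. The ages have no replicate check. Cells with both genes numbered 1 at P8 (1.63 expected) and 0 at P11 (2.36 expected), too few to show exclusion or its absence.

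The 2 genes differed in their relation to the subtype markers. *Glra4* was rare in cells with *Rnd3* alone and more frequent in cells with *Fezf1* alone, whereas *P2rx2* was found in both kinds of cell. At P11, *Glra4* was present in 8 of 21 *Fezf1* cells (38.1%, 18.1 to 61.6) and in 2 of 91 *Rnd3* cells (2.2%, 0.267 to 7.71). At P16 it was present in 20 of 34 *Fezf1* cells (58.8%, 40.7 to 75.4) and in 0 of 11 *Rnd3* cells, which allows a share of up to 27.3% by 3 counts and 28.5% by the exact interval. The intervals of the 2 kinds of cell did not overlap at P11 or P16. With a limit of about 10 fragments for *Glra4*, the shares at P11 were 19% (4 of 21, 5.45 to 41.9) and 1.1% (1 of 91, 0.0278 to 5.97), whose intervals overlap. At P8 the direction was the same, 10 of 82 *Fezf1* cells (12.2%, 6.01 to 21.3) against 2 of 64 *Rnd3* cells (3.13%, 0.381 to 10.8), but the intervals overlapped.

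With all fragments used, the sets agreed in direction. In set a, *Glra4* was found in 18.4% of P8 *Fezf1* cells against 3.13% of *Rnd3* cells. The P11 shares of set a were 38.5% against 2.27%, and those of P16 57.1% against 0%. Set b gave 6.82% against 3.13% (P8), 37.5% against 2.13% (P11) and 61.5% against 0% (P16). *Glra4* was thus more frequent in *Fezf1* cells in both sets at each of these ages when all fragments were used. The P8 counts of set b were small, 3 of 44 *Fezf1* and 1 of 32 *Rnd3* cells. After thinning of each cell to 119010 fragments they were 1 of 44 (2.27%) and 1 of 32 (3.13%), the reverse direction. The *Rnd3* cells at P16 numbered only 6 in set a and 5 in set b. Depth was alike, with a median of 259030 fragments in *Fezf1* and 280516 in *Rnd3* cells at P11, and 266969 and 265492 at P16.

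The size of this difference was set beside that of all genes whose mean FPKM reached 1. At P11, 29 of 11477 genes (0.253%) had a share in *Fezf1* cells that exceeded the share in *Rnd3* cells by as much as that of *Glra4*, 35.9 percentage points, or more. At P16, apart from *Fezf1*, which defines these cells, *Glra4* itself was the only gene of 10445 with a difference of 58.8 points or more. At P8 the difference of 9.07 points was reached by 5.38% of 11750 genes. The median over all genes was -2.82 points (P8), -0.733 (P11) and 1.87 (P16). This grouping and this measure were chosen after values of the data had been seen.

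*P2rx2* was present in 11 of 82 *Fezf1* cells (13.4%) against 6 of 64 *Rnd3* cells (9.38%) at P8. The counts of P11 were 4 of 21 (19%) against 10 of 91 (11%), and those of P16 were 16 of 34 (47.1%) against 5 of 11 (45.5%). The intervals overlapped at each age, and at P16 50.9% of the genes had a difference at least as high. With 11 *Rnd3* cells at P16 the interval ran from 16.7 to 76.6%, so a moderate difference could not have been seen. The sets did not agree in direction at P8 and P16. *P2rx2* was in 7.89% of *Fezf1* and 18.8% of *Rnd3* cells of set a at P8, but in 18.2% and 0% of those of set b. At P16 it was in 4 of 6 *Rnd3* cells of set a (66.7%, against 47.6% of *Fezf1* cells) and 1 of 5 of set b (20%, against 46.2%). At P11 both sets had the higher share in *Fezf1* cells, 15.4% against 13.6% in set a and 25% against 8.51% in set b.

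Cells with neither marker resembled the *Fezf1* cells in *Glra4*. *Glra4* was found in 12 of these 28 cells at P11 (42.9%, 24.5 to 62.8) and in 71 at P16 (51.1%, 42.5 to 59.6). *P2rx2* was found in 1 of the 28 at P11 (3.57%) and in 56 cells at P16 (40.3%, 32.1 to 48.9).

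**Figure D2:**
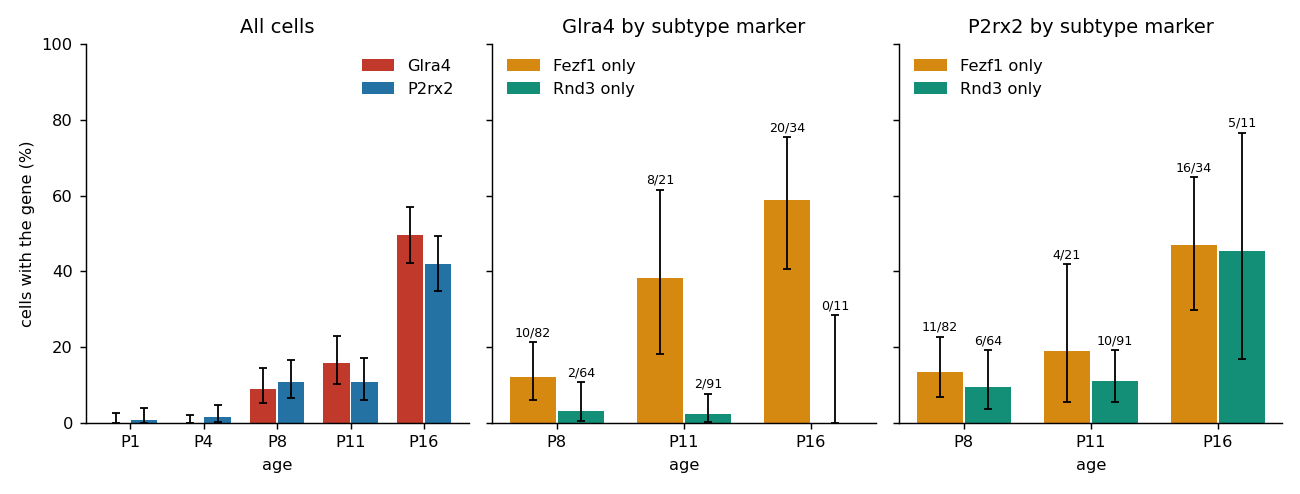
Percent of cells with at least 1 fragment of *Glra4* or *P2rx2*, in all cells of each age (left) and in cells with *Fezf1* alone or *Rnd3* alone at P8, P11 and P16 (middle, *Glra4*; right, *P2rx2*). Bars are shares with exact 95% intervals, and the numbers are cells with the gene of all cells. *Glra4* was found in 20 of 34 *Fezf1* cells and 0 of 11 *Rnd3* cells at P16, *P2rx2* in 16 of 34 and 5 of 11.

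Read from the other side, *Fezf1* did not separate the *Glra4*-only from the *P2rx2*-only cells. It was present in 11 of 54 *Glra4*-only cells (20.4%, 10.6 to 33.5) and 7 of 40 *P2rx2*-only cells (17.5%, 7.34 to 32.8), and the mean FPKM was 37.4 and 24.4. In cells with both genes the share was 26.3% and in cells with neither it was 14.8%. The intervals of the 4 groups overlapped. *Rnd3* was present in 1 of 54 *Glra4*-only cells (1.85%, 0.0469 to 9.89) and 6 of 40 *P2rx2*-only cells (15.0%, 5.71 to 29.8), and in 0 of 38 cells with both and 6 of 54 with neither (11.1%, 4.19 to 22.6).

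Of the 13 P16 cells with *Rnd3*, 12 were thus without *Glra4*. The exception held 1 *Rnd3* fragment (FPKM 1.11), a *Glra4* FPKM of 276.4 and a *Fezf1* FPKM of 353.4. The 6 *P2rx2*-only cells with *Rnd3* had *Rnd3* FPKM values of 4.87, 10.7, 15.7, 138.1, 146.1 and 283.1, and *P2rx2* FPKM values, in the same order, of 108.8, 313, 2.53, 839.4, 20.4 and 176.1. The 6 cells with neither receptor gene had *Rnd3* FPKM values of 3.69, 8.91, 32.1, 65, 181.8 and 237.2. High and low *Rnd3* levels occurred with and without *P2rx2*. If *Glra4* and *Rnd3* were independent, 6.43 of the 13 cells would have held *Glra4*, and for *P2rx2* and *Rnd3* 5.45 cells with both were expected and 6 were found.

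The 2 groups were then compared across all genes, leaving out *Glra4* and *P2rx2*. A gene was counted when the ratio of mean FPKM between the groups, with a pseudocount of 1, was at least 2-fold in the same direction in each set. Fold changes on this scale understate those of low genes. Of 8340 genes that reached a mean FPKM of 5, 467 (5.6%) were higher in *Glra4*-only and 343 (4.11%) in *P2rx2*-only cells, 810 (9.71%) in all. A further 726 genes (8.71%) were 2-fold apart in both sets but in opposite directions. The sets thus disagreed on nearly as many genes as they agreed on. Across genes the log2 ratios of the sets had a Pearson correlation of 0.02 (8340 genes, which are not independent replicates, in separate cells).

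A gene that was 2-fold higher in *Glra4*-only cells in set a gave little information about set b. Of 1704 such genes, 27.4% were 2-fold higher and 19.7% 2-fold lower in set b, and 21.7% of all genes were 2-fold higher there. Of 1512 genes 2-fold higher in *P2rx2*-only cells in set a, 22.7% were so in set b and 25.9% were 2-fold apart in the opposite direction. The counted genes were found in few cells. Their median was 9.57% of the 94 cells in both directions, against 20.2% over all genes, and 79 of the 467 and 24 of the 343 had a mean of 0 in 1 group. Only 4 and 1 of them were present in at least 50% of the cells.

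The *Fezf1* and *Rnd3* cells of earlier ages, compared in the same way, gave sets that agreed more often. At P8, 216 genes (2.44% of 8835) were 2-fold apart in the same direction and 29 (0.328%) in opposite directions, and the log2 ratios of the sets had a correlation of 0.31. At P4 the numbers were 224 (2.55% of 8790) and 58 (0.66%), with a correlation of 0.26, and at P11 625 (7.5% of 8334) and 366 (4.39%), with 0.11. The contrast with P16 was larger among well expressed genes. Where the mean FPKM reached 50, 39 genes agreed and 28 disagreed at P16, against 30 and 0 (P4), 32 and 0 (P8) and 38 and 14 (P11). The groups also differed in size (54 and 40 cells here, 82 and 64 at P8, 21 and 91 at P11), and the part of group size in this contrast was not tested.

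**Figure D3:**
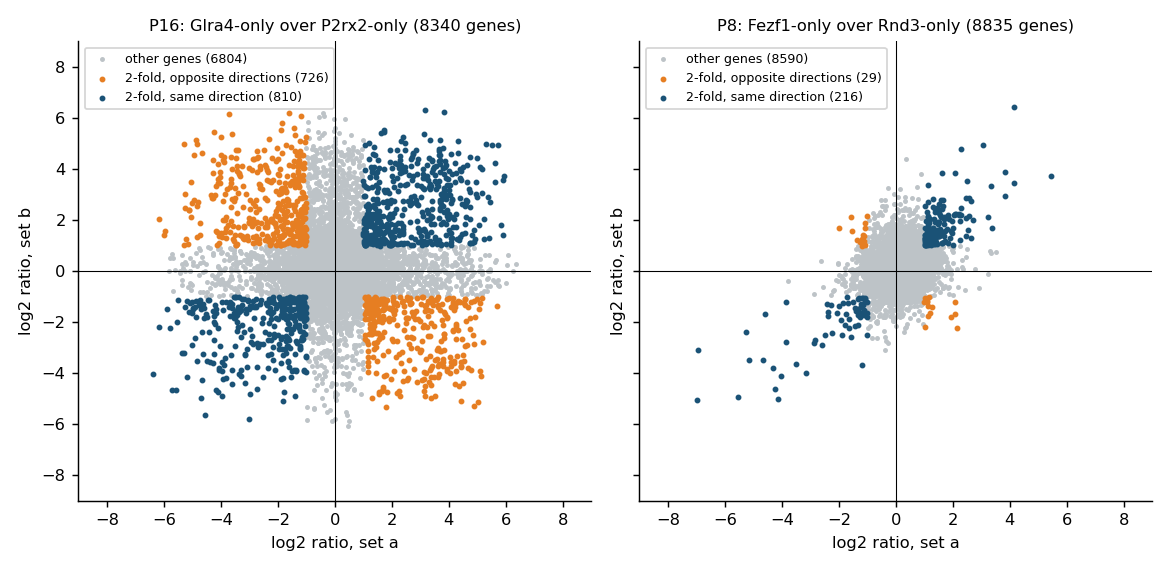
Log2 ratio of mean FPKM (pseudocount 1) in set a (horizontal) and set b (vertical), 1 point per gene, for *Glra4*-only over *P2rx2*-only cells at P16 (left) and *Fezf1*-only over *Rnd3*-only cells at P8 (right). Dark points are 2-fold apart in the same direction in both sets and orange points in opposite directions. The 810 and 726 points at P16 fill the 4 quadrants, whereas 216 points at P8 lie along the diagonal and 29 off it.

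Genes of the earlier *Fezf1* and *Rnd3* cells were followed into P16. Of the genes 2-fold higher in *Fezf1* cells in both sets at P4, 81 were tested at P16. Of these 7 were counted as higher in *Glra4*-only cells and 3 in *P2rx2*-only cells and 5 went opposite ways, where over all genes the shares were 5.6%, 4.11% and 8.71%. The median log2 ratio was 0.15, against 0.07 for all genes. Of 51 such genes on the *Rnd3* side, 3 were counted as higher in *Glra4*-only and 4 in *P2rx2*-only cells and 3 went opposite ways, with a median of 0.07. The *Fezf1*-side genes of P8 gave 6, 4 and 8, with a median of 0.00, and the 28 on the *Rnd3* side gave 3, 5 and 5, with a median of -0.10. The *Fezf1*-side genes of P11 gave 9, 6 and 6, with a median of 0.13. The 355 *Rnd3*-side genes of P11, the longest of these lists, gave 31 higher in *Glra4*-only cells, 18 in *P2rx2*-only cells and 48 in opposite directions, with a median of 0.00. With the sets pooled, the medians of these lists therefore lay close to the median of all genes, though the sets differed in the short P8 *Rnd3*-side list.

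A shorter list was also followed. Of genes 2-fold apart the same way in both sets throughout P4, P8 and P11, 11 were higher in *Fezf1* and 10 in *Rnd3* cells, and 9 and 5 of these were tested at P16. The counted genes among them, 2 of 9 and 2 of 5, stand beside 9.71% counted and 8.71% in opposite directions over all genes, and they rest on few cells, so they are given as values only. From the *Fezf1* side, 2 were counted as higher in *Glra4*-only cells, *Pdyn*, which encodes the dynorphin precursor, and *Pcsk2*, a protease that cleaves neuropeptide precursors. *Pdyn* had a mean FPKM of 18.3 in *Glra4*-only cells and was listed at 0 in *P2rx2*-only cells, but it rested on 5 of 54 cells. It was also found in 13.2% of the cells with both receptor genes (mean FPKM 14.5) and in 7.41% of the cells with neither (mean FPKM 21.4). *Pcsk2* had means of 21.1 and 0.65, a log2 ratio of 3.75 (3.98 and 3.60 in the sets), and was present in 9 of 54 and 5 of 40 cells (16.7% and 12.5%). The other *Fezf1*-side genes went either way. Over all 9 tested, the pooled log2 ratio was above 0 in 4 genes and below 0 in 5, with a median of -0.07. In both sets alike, 3 of the 9 were above 0 and 4 below 0. *Cntn5*, an adhesion molecule of the contactin family, had log2 ratios of -5.35 and -0.53 in the sets. *Nptx1*, a synaptic pentraxin, had -0.23 and 0.92.

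From the *Rnd3* side, *Egfem1* and *Hist1h2bc* were counted as higher in *P2rx2*-only cells and 0 genes as higher in *Glra4*-only cells. *Egfem1* had a mean FPKM of 10.7 in *Glra4*-only and 88.5 in *P2rx2*-only cells, with log2 ratios of -2.73 (set a) and -3.78 (set b), and was found in 2 of 54 and 5 of 40 cells. *Hist1h2bc*, a histone H2B gene, had 16 and 44.3, with log2 ratios of -1.20 and -1.72, in 3 of 54 and 8 of 40 cells. *Camk2d*, a calcium and calmodulin-dependent kinase, had ratios of -1.02 and 0.70 in the sets, and *Ldha*, lactate dehydrogenase A, -0.31 and 0.30. *Igsf21* was 2-fold apart in opposite directions, with -4.28 and 3.84, and rested on 1 cell of each group. Over the 5 tested *Rnd3*-side genes, the pooled log2 ratio was below 0 in 4 and above 0 in 1. Below the limit for testing, *Tenm3*, a teneurin that guides synaptic partner matching, was in 0 of 54 *Glra4*-only and 6 of 40 *P2rx2*-only cells (15%). It was also in 1 cell with both receptor genes and 3 cells with neither. *Grik2*, likewise untested, went the other way, with mean FPKM values of 6.89 and 1.97 in 4 of 54 and 3 of 40 cells. *Crabp1*, *Lypd6* and *Trhde* were each in 0 *Glra4*-only cells and 1 *P2rx2*-only cell.

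Genes of starburst cells were expressed in both groups, though not all of them in most cells. *Slc18a3*, which encodes the vesicular acetylcholine transporter, had a mean FPKM of 1041 in *Glra4*-only and 923 in *P2rx2*-only cells and was present in 98.1% and 100% of them. *Gad1*, a GABA-synthesizing enzyme, had 1538 and 1580 and was present in every cell of both groups. *Synpr*, a synaptic vesicle protein, had 657 and 791, with log2 ratios of -0.31 and -0.23 in the sets. None of these differences reached 2-fold in either set.

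*Chat*, the acetylcholine-synthesizing enzyme, had a mean of 325.4 and 223.8, a log2 ratio of 0.54 (0.43 and 0.67 in the sets), and was found in 94.4% (84.6 to 98.8) and 82.5% (67.2 to 92.7) of the cells. The deposited tables place *Chat* and *Slc18a3* at 1 locus, and how its reads were shared out between the genes is not known here. The 6 starburst genes of the marker list summed to a median FPKM of 2359 in *Glra4*-only cells (range 827 to 5767) and 2004 in *P2rx2*-only cells (923 to 4084), and 0 of the 6 were counted in either direction. Among these 6, *Slc5a7* was in 87% and 85% of the cells and *Isl1* in 98.1% and 95%. *Megf10* was in only 31.5% and 20%, with log2 ratios of 2.43 and -0.44 in the sets, and *Sox2* in 20.4% and 20%. Of the 7 genes tested for acetylcholine and GABA synthesis and transport 0 were counted, with a median log2 ratio of 0.30.

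*Sema6a*, a transmembrane semaphorin, and its receptor gene *Plxna2* did not differ the same way in both sets. *Sema6a* had a mean FPKM of 41.4 in *Glra4*-only and 75.7 in *P2rx2*-only cells, but the log2 ratio was 0.37 and -1.64 in the sets. *Plxna2* had 29 and 27.9, with 0.73 and -0.72 in the sets. *Cck*, the cholecystokinin precursor, was present in 48.1% and 52.5% of the cells, with a log2 ratio of -0.30.

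**Figure D4:**
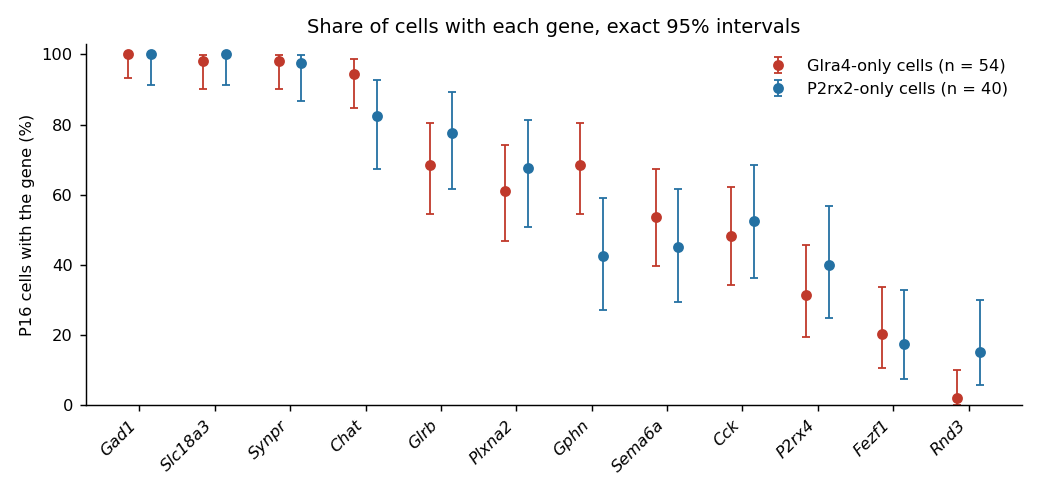
Percent of P16 cells with at least 1 fragment of each gene (horizontal axis) in the 54 *Glra4*-only and the 40 *P2rx2*-only cells, with exact 95% intervals. The intervals of the 2 groups overlap for all 12 genes. *Gphn* (68.5% and 42.5%) and *Rnd3* (1.85% and 15%) overlap by the least.

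Partners of the 2 receptors were examined next. *Glrb*, the beta subunit that joins alpha subunits in synaptic glycine receptors, was present in 68.5% of *Glra4*-only and 77.5% of *P2rx2*-only cells, with mean FPKM values of 160.9 and 127.1. *Gphn* encodes gephyrin, the scaffold that anchors glycine and GABA-A receptors. It was found in 68.5% of *Glra4*-only cells (54.4 to 80.5) and 42.5% of *P2rx2*-only cells (27 to 59.1), with means of 79.1 and 51.7, and in 57.9% of cells with both receptor genes and 53.7% with neither. Its share was higher in *Glra4*-only cells by 33.1 percentage points in set a and 19.3 in set b, but the intervals overlapped and the mean was not 2-fold apart. Both tested genes of the glycine list were thus available in cells with and without *Glra4*. Among the other alpha subunits, *Glra2* was present in 5.56% of *Glra4*-only and 0% of *P2rx2*-only cells and in 14.8% of cells with neither gene, and *Glra1* and *Glra3* were listed at 0 in all P16 cells.

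Among the purinergic genes, *P2rx4*, another ATP-gated channel subunit, was the most frequent P2X gene after *P2rx2*. It was present in 31.5% of *Glra4*-only and 40% of *P2rx2*-only cells, with mean FPKM values of 70.9 and 91.2 and log2 ratios of -0.34 and -0.38 in the sets. *P2rx3*, whose subunit can join P2X2 in 1 channel, was found in 1 *P2rx2*-only cell (2.5%). *P2ry14*, a receptor for UDP sugars, was in 72.2% and 67.5% of the cells. *Adora2b*, an adenosine receptor, went opposite ways in the sets (-1.15 and 2.87) and rested on 2 and 3 cells. None of the 3 purinergic genes tested was counted in either direction.

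Across 27 gene lists with 420 genes, 4 genes were counted as higher in *Glra4*-only and 6 in *P2rx2*-only cells, and 3 went opposite ways. The 10 were 6.41% of the list genes tested, against 9.71% of all genes. They included *Rnd3*, with mean FPKM values of 0.0206 and 15 and log2 ratios of -4.89 and -1.16 in the sets. The means were 0 and 28.6 in set a, but only 0.0397 and 1.32 in set b, where *Rnd3* was in 1 of 28 and 2 of 20 cells. Of 10 glutamate receptor genes tested, 1 was counted. *Grm8*, an inhibitory group III metabotropic glutamate receptor, had a mean FPKM of 30.7 in *Glra4*-only and 95.9 in *P2rx2*-only cells, log2 ratios of -1.79 and -1.53 in the sets, and shares of 33.3% and 52.5%. The shares were alike in set a, 34.6% and 35%, and differed in set b, 32.1% and 70%. In *Fezf1* over *Rnd3* cells its log2 ratio was -1.60 (P4), -0.30 (P8) and -0.90 (P11). Of 3 acetylcholine receptor genes tested, 1 was counted. *Chrm2*, the M2 muscarinic acetylcholine receptor, had means of 0.609 and 12.7, log2 ratios of -4.10 and -2.22, and was found in 1 of 54 and 7 of 40 cells. Of 24 synaptic vesicle and release genes tested, 1 was counted and 1 went opposite ways. *Syn3*, a synapsin, had 4.53 and 22.9 with ratios of -1.77 and -3.04, in 4 of 54 and 8 of 40 cells.

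*Kcnma1*, the pore of the BK potassium channel, had a mean of 25.5 in *Glra4*-only and 4.91 in *P2rx2*-only cells (14 and 6 cells), and its ratios were 4.82 and 1.12 in the sets. Its shares went opposite ways, 30.8% and 5% in set a but 21.4% and 25% in set b. *Nr4a1*, an activity-regulated nuclear receptor, had means of 27.3 and 7.37 (12 and 3 cells). The ephrin receptor gene *Epha7* was in 2 *Glra4*-only cells and listed at 0 in the *P2rx2*-only cells. *Cntn1*, a contactin, was higher in *P2rx2*-only cells, with means of 15.6 and 45.4 in 13 cells of each group. The remaining lists, with 0 genes counted, included 7 tested GABA receptor genes (median log2 ratio -0.09), 9 tested calcium, sodium and HCN channel genes (-0.12), 5 semaphorins and plexins (-0.20) and 9 transcription factors of amacrine cells (-0.15).

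The genes with the largest ratios held in both sets were rare. The 12 that led in *Glra4*-only cells (*Rassf7*, *Setd6*, *Plgrkt*, *Xrcc6bp1*, *Otub2*, *Wdsub1*, *Tcf12*, *Lmf1*, *Arg2*, *Nme6*, *Tmem132a* and *Surf6*) were found in 4 to 11 of 54 cells, and 10 of them in 0 *P2rx2*-only cells. *Plgrkt*, a plasminogen receptor, was the most frequent, in 11 *Glra4*-only cells (20.4%, 10.6 to 33.5) with a mean FPKM of 37. The 12 that led in *P2rx2*-only cells (*Gm10941*, *Gm37419*, *Mpv17l*, *Gm29595*, *2900076A07Rik*, *Slc25a32*, *Gm15551*, *Rfxap*, *Znrd1as*, *Gpd2*, *Dcp2* and *Sufu*) were found in 2 to 8 of 40 cells, and 11 of them in 0 *Glra4*-only cells. *Mpv17l*, a protein of peroxisomes or mitochondria, was in 8 *P2rx2*-only cells (20%, 9.05 to 35.6) with a mean of 38.1. Several of the leading genes are housekeeping genes, such as *Dcp2* of mRNA decapping and *Gpd2* of the glycerol phosphate shuttle.

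By the share of cells in place of the mean, 23 genes (0.276%) were more frequent in *Glra4*-only cells by at least 20 percentage points in both sets, 24 (0.288%) in *P2rx2*-only cells, and 39 (0.468%) were 20 points apart in opposite directions. Disagreements between the sets nearly equalled the agreements by this measure too.

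The genes whose levels were most like those of *Glra4* over the P16 cells were *Ptpn1* (Spearman correlation 0.26), *Dnajb11* (0.25), *R3hcc1* (0.25), *Tmem62* (0.24) and *Cox19* (0.24). For *P2rx2* they were *Ahi1* (0.29), *Fnbp1* (0.26), *Atg14* (0.25), *Cdk5r1* (0.25) and *Napepld* (0.23). All were weak, and cells share depth and pool, so they are given as a description. *Rnd3* ranked 8320 of 8341 genes in likeness to *Glra4* (-0.20), and *Fezf1* ranked 856 (0.10). In likeness to *P2rx2*, *Rnd3* ranked 4558 (-0.01) and *Fezf1* 1451 (0.07).

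Most markers of other retinal cells were at or near 0 in both groups. Each gene of the ganglion cell, microglial, endothelial and other amacrine lists was in 0% of *Glra4*-only and at most 2.5% of *P2rx2*-only cells. Cone genes were in at most 1.85% and 5% of the cells, and Müller glia genes in at most 13% and 15%. Of the bipolar list only *Prkca* was found (46.3% and 52.5%), and of the horizontal list only *Calb1* (85.2% and 97.5%), both of which amacrine cells also express. The immediate early and heat shock genes summed to a median FPKM of 140.4 and 109.6, and the mitochondrial genes to 21721 and 21564. Cells with *Xist* made up 13% of *Glra4*-only and 25% of *P2rx2*-only cells and cells with a Y-linked gene 44.4% and 47.5%, so both sexes were present in each group. The Y-linked gene *Uty* was counted as higher in *P2rx2*-only cells, in 5 and 6 cells. The part of these shares in the differences between the groups was not tested.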

How the data were processed

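Starburst amacrine cells were sorted singly and sequenced as 75 bp paired-end reads. Per the submitters' processing notes and the study's methods, HISAT2 2.1.0 placed the reads on GRCm38.p6 (mm10), SAMtools 1.3.1 converted the alignments and Cufflinks 2.2.1 estimated gene levels. The authors deposited FPKM values, which correct for transcript length and sequencing depth. They also deposited a signal per gene, equal to estimated fragments over a size factor, and that size factor for every cell, a ratio (0.482 to 1.78 at P16). Signal times size factor is called fragments here. At P16, 97.1% of the nonzero products came within 0.01 of a whole number, and the others did not, so no count model was used. Each deposited sample is 1 cell. Columns were mapped to samples by cell name, with 0 left over, and 35 cells labelled as filtered out were not used. P16 cells held 161785 to 488763 fragments (median 266579) and 2104 to 3037 genes with an FPKM above 0.1.

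A gene was present from 0.995 fragments, and the fold and filter settings are given beside the results. The largest share that a listed 0 allows was taken as 3 counts of the cells. ON and OFF labels, which P16 cells lack, were not used. Named genes were a fixed list of 11, the 12 genes in each direction with the largest ratio held in both sets, all counted list genes (for a list with none, up to 2 with the largest ratio), and the 5 most like each receptor gene. Genes outside this rule, and the comparisons with *Fezf1* and *Rnd3* cells and with other gene pairs, were chosen after values were seen. The members, lists and alternatives were chosen with earlier results of these data known. Loci are those deposited, while exons and the span of *Glra4* come from GENCODE vM21. The comparison across genes was tested on simulated data. Alternatives changed the presence threshold, depth, pseudocount, filter, scaling and counting rule. The software was numpy 2.4.6, scipy 1.17.1 and pandas 2.3.3 under Python 3.11.15.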

Additional observations from a re-analysis of the deposited data

How the results depend on the processing

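No paired analysis was possible because the labels name no mouse and give the groups no shared replicate numbers. The ratio of observed to expected cells with both receptor genes lay between 0.979 and 1.00 under all 8 alternatives (3 other presence limits, thinning to 161786 fragments, deep or shallow cells alone, and each set alone), against 0.985. The numbers of counted genes moved far more. Genes higher in *Glra4*-only cells were 5.6% of those tested. They were 8.74% in cells at or above the median depth and 9.14% below it, 1.85% with a pseudocount of 10, 2.78% where the mean FPKM reached 20, 5.22% (703 genes, against 467) with no filter, 1.28% by the mean of log2(FPKM + 1), 13.6% with the sets pooled, 2.33% at a log2 ratio of 2 and 0.276% by the share of cells. Genes higher in *P2rx2*-only cells were 4.11% of those tested. They were 1.22% with a pseudocount of 10, 1.89% where the mean FPKM reached 20, 1.12% by the mean of log2(FPKM + 1), 10.6% with the sets pooled, 0.971% at a log2 ratio of 2 and 0.288% by the share of cells. Under every alternative that kept the sets apart, the genes that went opposite ways outnumbered those in either single direction. Opposite genes pool 2 cases, higher in set a or higher in set b, so the like count is both single directions together. That count was 810 against 726 opposite with the settings used, and 225 against 191 where the mean FPKM reached 20. In cells at or above the median depth, 715 and 482 genes stood against 1207. No counted gene named by the rule changed direction under its 6 alternatives. A limit of about 10 fragments and thinning to 119010 fragments, both chosen after the data had been seen, left *Glra4* in 47.1% and 52.9% of *Fezf1* cells at P16 and in 0% of *Rnd3* cells. At P11 they left it in 19% and 33.3% of *Fezf1* cells against 1.1% and 2.2% of *Rnd3* cells, and under the former the intervals at P11 overlap.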

Other observations

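Genes that many P16 cells express and that differed by their share of cells in both sets were chosen after their values were seen. *Hpca*, which encodes the neuronal calcium sensor hippocalcin, was present in 70.4% of *Glra4*-only cells (95% interval 56.4 to 82) and 30% of *P2rx2*-only cells (16.6 to 46.5), with differences of 39.2 points in set a and 41.4 in set b. It was present in 44.7% of cells with both receptor genes and 51.9% of cells with neither, so the groups with *Glra4* did not stand together against those without it. Of 8341 genes it had the lowest Spearman correlation with *P2rx2* over the P16 cells, -0.26. *Mab21l2*, a gene of eye development, was in 72.2% and 40% of the 2 groups, and in 42.1% of cells with both and 55.6% with neither. *Eif4e*, the cap-binding translation factor, was in 40.7% of *Glra4*-only and 75% of *P2rx2*-only cells, and in 39.5% of cells with both and 59.3% with neither. *Mat2a*, which makes S-adenosylmethionine, was in 38.9% and 70%, with 50% in each of the other groups. These are extremes of 8340 genes, 39 of which differed by 20 points or more in opposite directions between the sets.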
